A study of Mus musculus with 6 samples.

Results

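The Nf1 locus on mouse chromosome 11 was described here as the stretch from 20 kb before to 20 kb after Nf1, chr11:79319693-79601612 on GRCm38, in 6 lists of H3K4me3 peaks. It held 46 of the 227418 peaks of the 6 lists, and the 5 listed genes were Nf1, Evi2, Evi2a, Evi2b and Omg. A gene counted as marked in a list if that list had a peak no more than 1 kb from 1 of its annotated transcript starts. The locus was chosen on these same peaks, because Evi2 and Evi2a were marked with all 4 compounds and not in the mutant control, so that pattern is a description and was not tested.

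The study asked how protective small molecules act in STHdh cells, conditionally immortalised striatal progenitor lines derived from mice and used as a model of Huntington's disease. Q7SST was the wild-type line STHdhQ7 and Q111SST the mutant line STHdhQ111, a homozygous knock-in of expanded huntingtin, both given vehicle control. The other 4 lists came from the mutant line given cyproheptadine or loxapine, which the study calls Group A, or DKI or meclizine, its Group B, each at 10 uM. Cyproheptadine and meclizine are antihistamines, loxapine is an antipsychotic drug and DKI is an inhibitor of diacylglycerol kinase. All 6 conditions shared the strain C57BL/6, medium without serum and a treatment of 24 hours. Each genotype was 1 cell line, so the huntingtin genotype and other differences between the lines cannot be told apart.

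There was 1 peak list per condition. The design text speaks of triplicate treatment, but no source used here says whether replicates were pooled, so no spread between replicates could be given and no difference between lists was tested. Sequencing depth was unknown, and a missing peak means only that none was called. Each peak carried a whole-number score of unstated scale, and its percentile among all peaks of its own list is given beside it. Every list had a lowest score of 10, and lists ran from 30758 peaks with DKI to 45564 with loxapine. In bulk chromatin, a mark on fewer cells and less of it per cell cannot be told apart.

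H3K4me3 is trimethylation of lysine 4 on histone H3, and it gathers over the promoters of genes that are active or poised. Nf1 encodes neurofibromin, a GTPase-activating protein that switches Ras off, and its loss in people causes neurofibromatosis. A large Nf1 intron carries small genes read in the opposite direction, an arrangement found in the human gene too. Evi2 and its relatives are named for an ecotropic virus integration site found in mouse leukaemias, and Evi2a and Evi2b encode membrane proteins known mainly from blood cells. Omg encodes oligodendrocyte-myelin glycoprotein, a surface protein of myelinating glia and neurons that binds the Nogo receptor and limits axon growth.

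Nf1 spanned chr11:79339693-79581612 on the plus strand, 241920 bp with 58 exons in transcript Nf1-201. Its intron 36 alone was 59719 bp, 24.7% of the gene, and held Omg, Evi2, Evi2b and Evi2a, all on the minus strand. Omg lay at chr11:79500982-79504084 and Evi2b at chr11:79515056-79523762. Evi2, at chr11:79513385-79530589, enclosed Evi2b and overlapped Evi2a, at chr11:79526560-79530609. The outermost starts of Evi2 and Evi2a were 79530589 and 79530609, so the 1 kb windows of those genes shared their peaks, and a peak carries no strand to assign it to either gene or to Nf1.

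The sequences below set the base composition of the Nf1 promoter beside that of the Evi2a start and of the other marked stretches, with each CG pair, the site of DNA methylation in mammals, in capitals. Nf1 upstream is the 300 bases at chr11:79339290-79339589, plus strand, with 29 CG pairs, and it lay under the promoter peak of all 6 lists. Evi2a upstream is the 250 bases at chr11:79530610-79530859, minus strand, just before the outermost Evi2a start, with 1 CG pair and under no peak of any list.
Nf1 upstream: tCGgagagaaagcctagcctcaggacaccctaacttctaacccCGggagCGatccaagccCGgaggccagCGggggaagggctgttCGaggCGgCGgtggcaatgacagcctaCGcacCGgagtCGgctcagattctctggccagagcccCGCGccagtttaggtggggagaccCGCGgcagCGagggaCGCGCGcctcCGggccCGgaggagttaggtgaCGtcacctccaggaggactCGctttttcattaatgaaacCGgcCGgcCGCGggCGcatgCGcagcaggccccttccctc
Evi2a upstream: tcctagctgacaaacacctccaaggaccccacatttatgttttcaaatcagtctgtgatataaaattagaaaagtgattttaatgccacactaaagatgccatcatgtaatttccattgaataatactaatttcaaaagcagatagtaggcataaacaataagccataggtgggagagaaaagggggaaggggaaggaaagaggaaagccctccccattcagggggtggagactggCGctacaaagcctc
The 71 bases at chr11:79530298-79530368, minus strand, belong to the stretch shared by the 4 compound peaks at Evi2a and follow the first exon of Evi2 and Evi2a.
Evi2a peak core, intron part: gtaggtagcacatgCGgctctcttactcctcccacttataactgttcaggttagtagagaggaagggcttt
The next is the middle 300 bases of the peak found in Q7SST alone, chr11:79495164-79495463, with 3 CG pairs. The remaining pair are the middle 300 bases of the stretches shared by all 6 lists inside Evi2b, chr11:79519685-79519984, and before Evi2a, chr11:79534463-79534762, with 2 and 3 CG pairs. These 3 are read on the plus strand.
+156 kb Q7SST: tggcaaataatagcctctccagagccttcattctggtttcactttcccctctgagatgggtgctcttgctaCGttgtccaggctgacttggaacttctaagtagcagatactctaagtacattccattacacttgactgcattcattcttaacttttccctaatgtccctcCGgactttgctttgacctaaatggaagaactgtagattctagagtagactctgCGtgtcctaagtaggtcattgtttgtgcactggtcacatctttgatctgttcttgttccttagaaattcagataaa
+180 kb core: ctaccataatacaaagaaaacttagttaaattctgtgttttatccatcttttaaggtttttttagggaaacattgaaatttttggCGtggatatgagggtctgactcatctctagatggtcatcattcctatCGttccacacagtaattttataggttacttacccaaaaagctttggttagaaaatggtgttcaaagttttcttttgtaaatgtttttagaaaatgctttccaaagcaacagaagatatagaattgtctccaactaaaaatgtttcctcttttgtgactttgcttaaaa
+195 kb core: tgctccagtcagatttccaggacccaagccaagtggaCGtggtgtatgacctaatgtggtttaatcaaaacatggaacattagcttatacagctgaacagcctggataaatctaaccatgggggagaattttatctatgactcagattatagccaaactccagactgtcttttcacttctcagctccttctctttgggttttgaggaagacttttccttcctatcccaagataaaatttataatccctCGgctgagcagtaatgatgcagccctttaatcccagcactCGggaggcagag

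The RefSeq promoter table (GRCm38.p6, 250 bases before to 50 after each start) held 3 of the 5 genes. The Nf1 window had 30 CG pairs, and 88.3% of the 32851 promoter windows had fewer. Evi2 had 2, with 14.1% of windows below it, and Evi2b had 5, with 38.0% below it, against a median of 7. In these windows 4 short strings were searched on both strands, and none of them is part of another. TATAAA, the TATA box, was found 1 time in the Evi2 window and in 13.6% of all windows. GGGCGG, the GC box, was found 1 time for Nf1 and in 35.7% of windows. GAGGAA, an ETS core, was found 1 time each for Evi2 and Evi2b and in 28.3% of windows, and CCAAT was in none of the 3 windows and in 37.4% of all. A match describes letters only, not a bound site. Evi2a and Omg had no window in that table.

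The 46 peaks fell into 14 merged regions, which are named here by the distance of their middle from the first Nf1 start. Loxapine had 12 peaks across the locus, Q111SST 8, DKI and meclizine 7 each, and Q7SST and cyproheptadine 6 each. The peaks covered 9.9 kb with loxapine, 7.6 kb in Q111SST, 6.8 kb in Q7SST, 6.6 kb with meclizine, 5.4 kb with DKI and 5.2 kb with cyproheptadine. Loxapine had the longest list, and with all lists cut to their 30758 strongest peaks it had 7 peaks here, as many as Q111SST and DKI. Of the 14 regions, 4 were found in all 6 lists, against 35.1% of the 61171 merged regions of the series. Another 5 were found in a single list, against 29.6%, and 4 of those 5 lay in the lower part of their list.

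**Figure D1:**
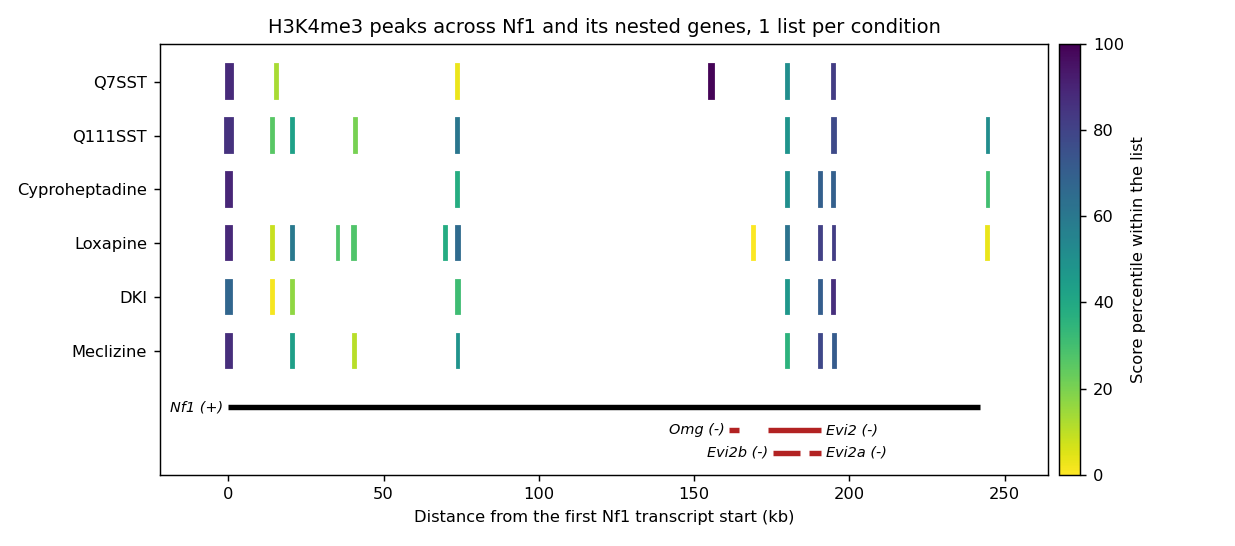
Map of the Nf1 locus, with the distance from the first Nf1 start in kb on the x axis, 1 row per list and the genes below them with their strand. Each bar is a called peak, darker for a higher percentile in its list, and narrow peaks are widened so that they can be seen. The promoter, +74, +180 and +195 kb regions run through all 6 rows, the +191 kb region is in the 4 compound rows and the +156 kb region is in the Q7SST row.

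Nf1 was marked in all 6 lists by 1 broad peak over its first exon. Its score was 139 in Q7SST (percentile 88.1), 123 in Q111SST (85.9), 130 with loxapine (88.5), 109 with cyproheptadine (89.2), 146 with meclizine (87.0) and 69 with DKI (67.4). DKI was the low value, with the other 5 lists between 85.9 and 89.2. Among all protein-coding genes, 53.5% were marked in all 6 lists and 37.0% in none. Marked genes made up 59.9% in Q7SST, 58.4% in Q111SST, 58.1% with loxapine, 55.4% with cyproheptadine, 58.6% with meclizine and 55.8% with DKI.

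The Nf1 percentile with DKI differed from that in Q111SST by -18.5 points, and 17.6% of the 12158 genes marked in both lists differed by that much or more downward, with a median of -6.6 points over those genes. The other 4 lists stood 1.1 to 3.3 points above Q111SST. The change with DKI was thus larger than that of most genes and inside their spread, whose lowest 5% lay at or below -29.5 points. Only 35.1% of marked genes had a lower percentile than Nf1 with DKI, against 58.2% to 72.5% in the other 5 lists.

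The promoter peak was 2306 bp wide in Q7SST, 2419 bp in Q111SST, 2092 bp with cyproheptadine, 2215 bp with loxapine, 1998 bp with DKI and 2126 bp with meclizine. Each began 781 to 912 bp before the first start and ended 1158 to 1506 bp after it, and the DKI peak ended earliest. Between 77.6% and 83.5% of peaks near coding starts were narrower in the same list. The merged promoter region held 124 CG pairs, an observed-to-expected ratio of 0.62, while no other region of the locus passed 0.39.

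**Figure D2:**
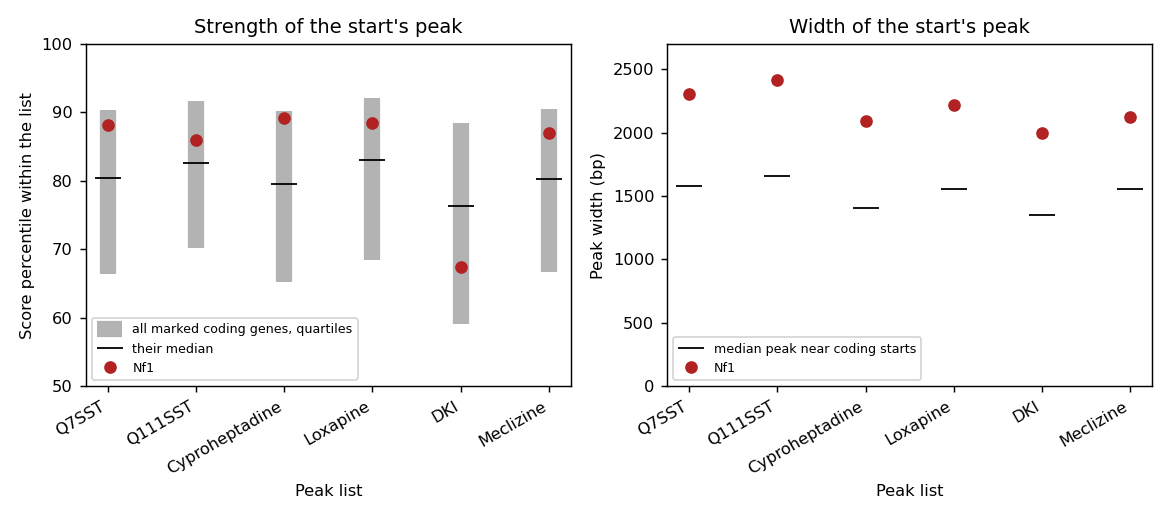
Peak at the Nf1 start in each of the 6 lists, as its score percentile within the list (left, axis from 50 to 100) and its width in bp (right). Red points are Nf1, black lines the median over marked coding genes (left) or peaks near coding starts (right) and grey bars the quartiles of those genes, with Nf1 above the median in 5 lists and below it with DKI at 67.4, and wider than the median peak in all 6.

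At the shared start of Evi2 and Evi2a, 1 peak was called with each compound and none in Q7SST or Q111SST. The score was 103 with loxapine (80.8), 66 with cyproheptadine (percentile 69.7), 115 with meclizine (78.3) and 74 with DKI (70.4). Both a Group A and a Group B compound were therefore in the upper and in the lower pair. The peaks chose the locus, and all 4 were set against the same Q111SST list.

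The 4 peaks were narrow beside the promoter peak of Nf1. They ran over chr11:79530010-79530569 with loxapine (560 bp), chr11:79530033-79530575 with cyproheptadine (543 bp), chr11:79530160-79530575 with meclizine (416 bp) and chr11:79530298-79530537 with DKI (240 bp). All began 34 to 72 bp inside the outermost Evi2a start and ended 311 to 599 bp inside it, on the first exon and the intron after it. None covered an Evi2a start. Of the 4, 3 covered the Evi2 start at 79530559, that of the nonsense-mediated decay transcript Evi2-201, and the DKI peak stopped 22 bp short of it. No peak reached 79530589, the start of the protein-coding transcript Evi2-202. The stretch was 36.2% GC with 7 CG pairs, and 19.3% of it was masked as repeat.

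**Figure D3:**
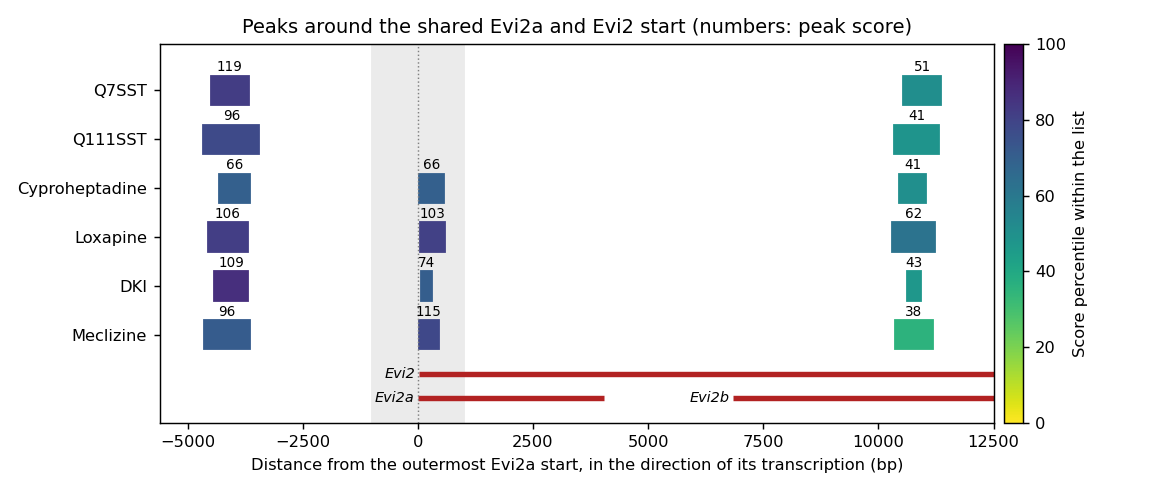
Peaks by list around the start of Evi2 and Evi2a, with distance in bp from the outermost Evi2a start in its direction of transcription on the x axis, numbers for scores, colours for percentiles within the list, grey for the 1 kb window and red lines for genes. The 4 compound peaks lie just inside the start, both vehicle rows are empty there, and all 6 rows have the +195 kb peak on the left and the +180 kb peak on the right.

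Marking in a list and not in Q111SST was also counted over all protein-coding genes. It was found for 3.60% of genes in Q7SST, 1.01% with loxapine, 0.306% with cyproheptadine, 1.02% with meclizine and 0.269% with DKI. Marking with all 4 compounds and in neither vehicle list was found for 6 genes, 0.0274% of 21911, namely Evi2, Evi2a, 4922502D21Rik, Csn3, Dnah8 and Il1rl2, of which Evi2 and Evi2a were called from the same peaks. The count was 12 genes (0.0548%) with lists of equal size and 3 (0.0137%) where a peak had to cover a start. Evi2 and Evi2a were not among those 3, since under that rule Evi2 was marked in 3 lists and Evi2a in 0. Csn3 encodes the milk protein kappa-casein, Dnah8 an axonemal dynein heavy chain and Il1rl2 the receptor of interleukin-36. The lowest percentile over the 4 compounds was 5.8 for Dnah8, 6.7 for 4922502D21Rik, 14.4 for Csn3 and 27.6 for Il1rl2, against 69.7 for Evi2 and Evi2a. Since the locus was picked for marking with all 4 compounds and not in Q111SST, which is part of this pattern, nothing is read from these shares.

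Among merged regions, 162 had the same pattern, 0.265% of all, and 23 of them lay within 1 kb of any start. The lowest percentile over the 4 compounds had a median of 9.6 over the 162 regions and was 69.7 for the Evi2a region, which is again a description of the values that chose it. The nearest called peak of both vehicle lists was the +195 kb peak, 3668 bp from the outermost Evi2a start in Q7SST and 3442 bp in Q111SST. The 1 kb window therefore had no peak just outside it in either list.

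The strongest peak of the locus in any list lay elsewhere. In Q7SST a peak of score 238 (percentile 99.2) spanned chr11:79494514-79496112, 1599 bp in Nf1 intron 36, and no mutant list had a peak there. Its closest annotated start was that of Omg, 7972 bp away, with the peak lying beyond the far end of that gene. The nearest peaks in other lists were 12.3 kb away with loxapine and 23.2 kb or more in the other 4.

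Of the 7817 merged regions found in Q7SST alone, 3 scored higher and 4 scored at or above it, itself included. It was the sole one of those 4 more than 1 kb from any annotated start. The median score of these regions was 29 and their median width 525 bp. The +156 kb region was 36.8% GC with 14 CG pairs, an observed-to-expected ratio of 0.26, and 20.2% of it was masked as repeat. It differed from the Nf1 promoter in composition and exceeded it in score within the same list, 238 against 139.

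Inside intron 36, a further pair of regions was found in all 6 lists. The +195 kb region, upstream of Evi2a, scored 119 in Q7SST (percentile 82.4), 96 in Q111SST (77.6), 106 with loxapine (81.8), 66 with cyproheptadine (69.7), 96 with meclizine (71.4) and 109 with DKI (86.6). It lay 1643 bp from the nearest start, that of the retained-intron transcript Nf1-208, and so marked no gene. Unlike the Nf1 promoter, it stood highest in its list with DKI and lowest with cyproheptadine.

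The +180 kb region, in the intron of Evi2b, was of middling strength. It scored 51 in Q7SST (percentile 50.8), 41 in Q111SST (48.2), 62 with loxapine (62.0), 41 with cyproheptadine (50.6), 38 with meclizine (35.9) and 43 with DKI (47.0). Its edge was 3457 bp from the Evi2b start. Evi2b and Omg were thus marked in none of the 6 lists.

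Near Omg the closest peak with loxapine was 4307 bp from the start, at +169 kb, a peak of score 10 whose bases were 100.0% repeat-masked. In the other 4 mutant lists the closest was the +180 kb peak, 15214 to 15594 bp away. Neither Omg nor Evi2b had a peak just outside its window.

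In the front part of Nf1, the +74 kb region was found in all 6 lists and had the widest range of percentiles among the 4 regions found in all of them. It scored 16 in Q7SST (percentile 2.8), 58 in Q111SST (60.8), 68 with loxapine (65.6), 30 with cyproheptadine (37.9), 52 with meclizine (48.6) and 29 with DKI (30.9). It was close to the bottom of the list in the wild-type line and above the middle in Q111SST and with loxapine. The region lay in intron 11 of Nf1-201 and its edge touched exon 12 of transcript Nf1-209.

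**Figure D4:**
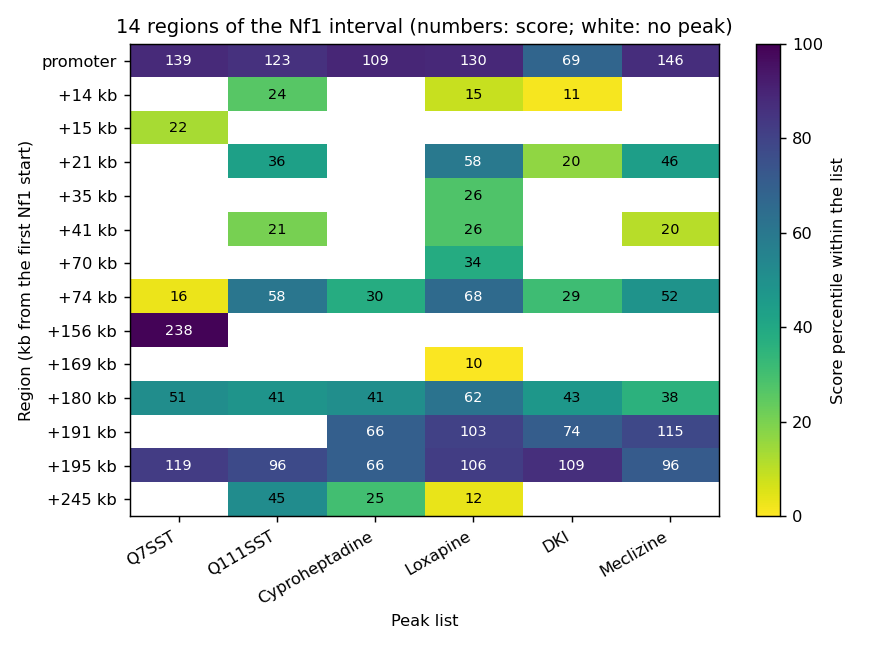
The 14 merged regions of the Nf1 locus in order of position (rows) by list (columns), with the score printed in each cell, its percentile within the list as colour and white where no peak was called. The promoter, +74, +180 and +195 kb rows are filled in all 6 lists, the +156 kb row holds a single Q7SST score of 238, and the +191 kb row is filled with the 4 compounds.

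Intron 1 of Nf1, next to the promoter, held weaker regions that were found in some lists. The +21 kb region scored 36 in Q111SST, 58 with loxapine, 20 with DKI and 46 with meclizine. The +14 kb region scored 24 in Q111SST, 15 with loxapine and 11 with DKI, and the +41 kb region 21 in Q111SST, 26 with loxapine and 20 with meclizine. None of these 3 regions was called in Q7SST or with cyproheptadine.

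Regions found in a single list were, apart from the +156 kb peak, weak. Loxapine alone had peaks at +35 kb (score 26), +70 kb (34) and +169 kb (10), and Q7SST alone had one at +15 kb (22). After the end of Nf1, the +245 kb region scored 45 in Q111SST, 25 with cyproheptadine and 12 with loxapine.

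Of the 8 regions of Q111SST in the locus, 8 were found with loxapine, 6 with DKI, 6 with meclizine, 5 with cyproheptadine and 4 in Q7SST. Over the whole series the shares of Q111SST regions found were 90.4% with loxapine, 86.2% with meclizine, 70.1% with DKI, 72.2% with cyproheptadine and 69.4% in Q7SST. Loxapine stood highest and Q7SST lowest in the locus as in the series.

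The flank of 20 kb left some peaks close by. The nearest peak past the downstream edge was 8871 to 9538 bp away in the 6 lists, and that before the upstream edge 11915 to 12430 bp away. The first peak inside the upstream edge was the Nf1 promoter, 19088 to 19219 bp from it, and the last before the downstream edge was 17146 to 66576 bp from that edge. Other genes that start in the interval were the pseudogenes Gm11198 and Gm11199, the antisense gene AU040972, the small nuclear RNA gene Gm23293 and Rab11fip4, an effector of Rab GTPases. None of the 46 peaks lay within 1 kb of their starts.

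Nf1 was set against other long genes by the peaks over the gene more than 1 kb from any annotated start. This leaves out the promoter peak and the +191 kb peak of the 4 compound lists, and left 5 peaks in Q7SST, 6 in Q111SST, 9 with loxapine, 3 with cyproheptadine, 5 with meclizine and 5 with DKI. Per 100 kb of Nf1 these came to 1.24 with cyproheptadine to 3.72 with loxapine. Among the 589 to 713 coding genes of at least 200 kb marked in the same list, Nf1 stood at percentile 50.8 with cyproheptadine and between 68.9 and 84.2 elsewhere. There were 537 coding genes nested in another coding gene on the opposite strand. Of these, 37.4% with DKI to 41.7% in Q7SST were marked, against 55.4% to 59.9% of all coding genes by list. Evi2 and Evi2a, called from the same peaks, were the 2 of the 537 marked with all 4 compounds and in neither vehicle list. Over all coding genes that pattern was found for 6 of 21911, 0.0274%. The locus was chosen for part of that pattern, so nothing is read from this.

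Genes known to mark cell types were compared with the label of striatal progenitor cells. Of 15 striatal and neural progenitor genes, 12 were marked in Q7SST, 10 in Q111SST, 10 with loxapine, 7 with cyproheptadine, 10 with meclizine and 8 with DKI. Over all coding genes the share was 55.4% to 59.9% by list, so that 7 or 8 of 15 lay near or below it. Vim, Dlx1, Dlx2, Ebf1, Foxp1 and Foxp2 were marked in all 6 lists, and the dopamine receptor genes Drd1 and Drd2, of mature striatal neurons, in none. Ppp1r1b (DARPP-32), another gene of those neurons, was marked at percentile 49.1 in Q7SST, 25.9 in Q111SST, 15.9 with loxapine and 29.0 with meclizine, and Bcl11b at 54.7 in Q7SST alone. Of 12 oligodendrocyte genes, for which Omg is named, Cnp, Pdgfra and Cspg4 were marked in all 6 lists and Mbp with meclizine alone. The defining transcription factor genes Olig1, Olig2 and Sox10 were marked in no list.

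Blood cell genes were looked at because Evi2a is known from those cells. Of 11, 3 were marked in Q7SST, 3 in Q111SST, 1 with loxapine, 0 with cyproheptadine, 2 with meclizine and 0 with DKI. Each count was below the share over all coding genes, 55.4% to 59.9% by list. Ptprc (CD45), Spi1, Csf1r, Itgam, Cd68, Cd3e and Vav1 were marked in no list. Lcp1 was marked at percentile 74.1 in Q7SST, 8.8 in Q111SST and 21.8 with meclizine, and Coro1a at 63.0 in Q7SST alone. Laptm5 was at 25.9 in Q111SST, 10.4 with loxapine and 15.6 with meclizine, and Aif1 at 6.1 in Q7SST and 4.9 in Q111SST. The part of other cell types in the Evi2a peaks was not tested.

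Nf1 acts on Ras, and the other genes of that switch were taken from lists of 25 in all. With Nf1 left aside, 18 of the 25 were marked in all 6 lists and 4 in none, against 53.5% and 37.0% of all coding genes, with 21 marked in Q7SST, 19 in Q111SST, 19 with loxapine, 18 with cyproheptadine, 19 with meclizine and 18 with DKI. All 6 Ras genes were marked in every list, with Nras the strongest of them in each (percentile 92.8 to 95.3) and Rras at 61.4 to 72.0. All 3 Spred genes, whose products bring neurofibromin to the membrane, were marked in every list, with Spred3 at 96.5 to 99.3 and Spred2 at 67.6 to 80.6.

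Of 8 other RasGAP genes, which like Nf1 switch Ras off, 6 were marked in all 6 lists, against 53.5% of all coding genes. Rasa1 was the strongest in each list, at percentile 92.8 to 98.6. The lowest percentile among these 6 genes was 56.9, that of Dab2ip with cyproheptadine. Rasal1 and Rasal3 were marked in no list.

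Of 8 exchange factor genes, which switch Ras on, the 3 genes Sos1, Sos2 and Rasgrp3 were marked in all 6 lists, against the same 53.5%. Sos1 was at percentile 69.8 with DKI and 75.8 to 90.9 in the other lists. Rasgrp1 was marked in 4 lists, the exceptions being cyproheptadine and DKI. Rasgrp2 and Rasgrf1 were marked in Q7SST alone, and Rasgrp4 and Rasgrf2 in none.

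Of 8 neighbours of Nf1 on chromosome 11, 7 were marked in all 6 lists, against 53.5% of all coding genes, and Adap2, 572.5 kb after the end of Nf1, was unmarked with DKI alone. Suz12, a subunit of Polycomb repressive complex PRC2 that lies 411.5 kb after Nf1, was the strongest of the 8 in the 5 mutant lists, at percentile 98.8 to 99.7. In Q7SST it was at 97.5, just below Tefm at 98.0 and Utp6 at 97.9. Rab11fip4, which begins 9.6 kb after Nf1, was marked in each list at an internal start, by the peak at chr11:79660554-79660993 in Q7SST. Its percentile ran from 6.0 with DKI to 42.4 in Q7SST, and that of Adap2 from 14.4 with cyproheptadine to 42.4 in Q7SST where Adap2 was marked. Crlf3, 464.9 kb after Nf1, was the other neighbour with its low value in DKI near that of Nf1, at 66.1 there and 80.4 to 90.0 elsewhere.

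**Figure D5:**
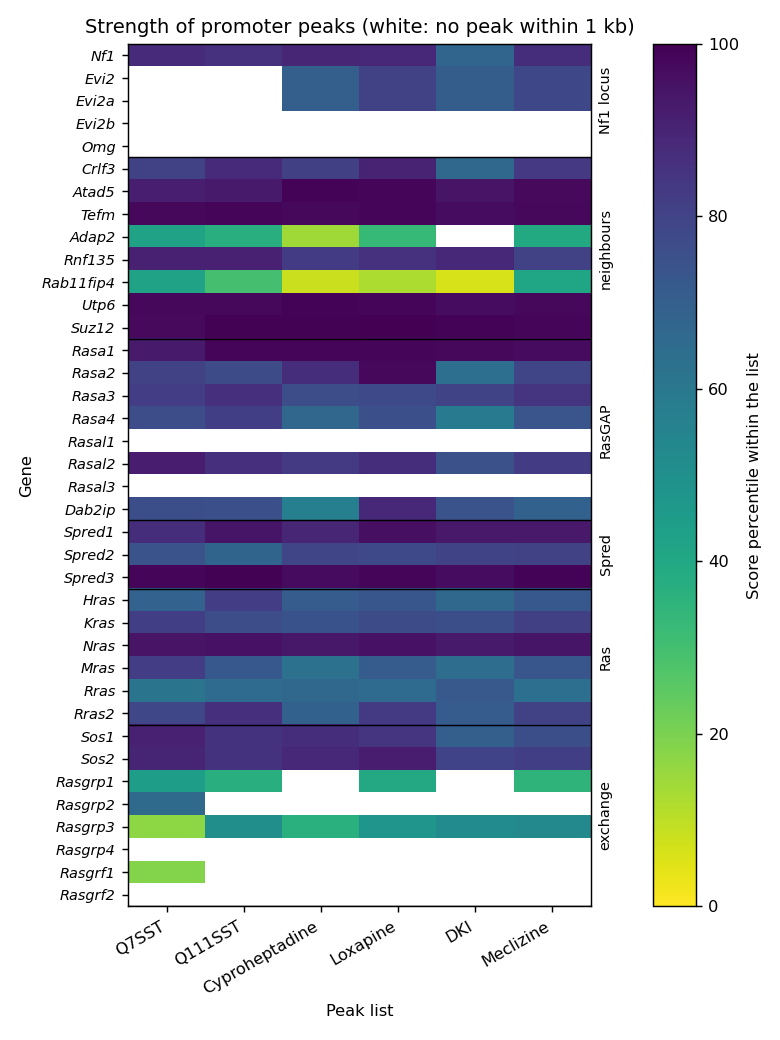
Score percentile within the list, as colour, of the strongest peak within 1 kb of a start for the genes of the locus, its neighbours and the 25 other genes of the Ras switch (rows) in the 6 lists (columns), white where no peak was called. Evi2 and Evi2a are filled with the 4 compounds, and the empty rows are Evi2b, Omg, Rasal1, Rasal3, Rasgrp4 and Rasgrf2.

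Omg acts through the Nogo receptor, and 10 genes of that system were compared. Marked genes numbered 7 in Q7SST, 4 in Q111SST, 5 with loxapine, 3 with cyproheptadine, 4 with meclizine and 4 with DKI. Over all coding genes the marked share was 55.4% to 59.9% by list, so the counts were above it in Q7SST and below it in the 5 mutant lists, and with 10 genes little can be read from either. Rtn4, which encodes Nogo itself, was marked in all 6 lists at percentile 86.7 to 94.6. Rtn4r, the receptor gene, was marked in Q7SST and with loxapine, DKI and meclizine, at 22.1 to 52.9. Lingo1, a co-receptor gene, was at 42.4 in Q7SST, 1.3 in Q111SST and 3.4 with loxapine. Rtn4rl1 and Ngfr were marked in Q7SST alone, and Mag, Mog and Pirb in no list.

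The genes whose percentiles over the 6 lists were closest to those of Nf1, by Euclidean distance, were Alg1, Donson, Slc25a10, Add1 and Pold3, at distances of 5.7 to 6.2 points. All 5 had their lowest value with DKI, at 66.1 to 71.5. For Evi2a, leaving out genes under the same peaks, the closest were Cgref1, Spaar, Cysltr1, Vill and 1700003F12Rik, at 47.6 to 62.3 points. All 5 of these were unmarked in Q7SST and marked in Q111SST, at 14.9 to 57.6, so none shared the absence of Evi2a from both vehicle lists.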

How the data were processed

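H3K4me3 ChIP-Seq was performed on micrococcal nuclease-digested chromatin from STHdh cells, with 6 deposited peak lists, 1 per condition. Per the submitters' processing notes the tools were Trimmomatic 0.36, Bowtie2, SAMtools 1.3 and MACS2, with genome build mm10. The roles of the tools, peak thresholds and input controls were not given in the sources used here. The authors deposited for each peak its position and a whole-number score, whose scale is not stated. Scores were therefore compared as percentiles within a list.

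Groups came from the sample labels. Transcript starts came from GENCODE mouse release M21, with 21911 protein-coding genes, and 0 peaks passed the end of chromosome 11 in GRCm38. Coordinates count from 1. A gene counted as marked if a peak was no more than 1 kb from a start, and its percentile was that of its strongest such peak. Overlapping peaks of the lists were merged into 61171 regions. Sequences came from the GRCm38 reference and the RefSeq promoter table. Scripts were tested on simulated data with planted peaks. Python 3.11.15, numpy 2.4.6, pandas 2.3.3 and matplotlib 3.10.9 were used.

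The genes of the locus and the lists of neighbours, Ras, Nogo receptor and cell type genes were chosen with earlier results of these data known. Named genes were those of the locus and, from the lists of neighbours, Ras and Nogo receptor genes, the strongest, the weakest and those unmarked in some or all peak lists, plus the 5 genes closest in pattern to Nf1 and to Evi2a. From these gene lists 2 genes were left out and are not reported here. The cell type genes given by name, Crlf3 and Sos1 were named after their values were seen. The alternatives were a higher score threshold, lists of equal size, merging of close peaks, other flanks, windows, overlaps and transcripts, and all annotated genes.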

Additional observations from a re-analysis of the deposited data

How the results depend on the processing

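Of 94 alternative values, 83 stayed within 1.5 times the reported count or inside its interval and 11 moved. With scores of at least the pooled median of 47, the peaks in the locus numbered 4 in Q7SST, 3 in Q111SST, 6 with loxapine, 3 with cyproheptadine, 4 with meclizine and 3 with DKI, and with lists cut to their 30758 strongest peaks loxapine had 7, as did Q111SST and DKI. Where a peak had to cover a start, Evi2a was marked in 0 lists, Evi2 in 3, and DKI gained 0 start regions of the nested genes against Q111SST. With starts within 5 kb, Evi2b was marked in 6 lists and Omg in 1, loxapine gained 2 such regions, and Evi2 and Evi2a were marked in 6 lists through the +195 kb peak. The share of genes marked with all 4 compounds and in neither vehicle list, 0.0274% (95% Wilson interval 0.0126% to 0.0597%, counting error only), was 0.0253% over all annotated genes, 0.0137% for peaks over a start, 0.0548% with lists of equal size (both of the latter a change by over 1.5 times, though inside that interval) and 0.0228% with GENCODE basic transcripts, the last chosen after seeing the data. No paired analysis was possible because there was a single list for every condition, and for the same reason no replicate could be left out. Depth was unknown, which limits what the absence of a peak can show.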

Other observations

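Past the downstream edge of the interval, Rab11fip4 was marked at an internal start by a peak of score 42 in Q7SST and 26 in Q111SST. Further on, a peak at the start of Gm11205 scored 164 in Q7SST and 167 in Q111SST, above the Nf1 promoter in both lists. A peak at the start of the microRNA gene Mir193a scored 62 in Q7SST and 82 in Q111SST.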
